A study of Mus musculus with 2 samples.

Results

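Abcc3 and 8 other transporters of the ABCB, ABCC and ABCD subfamilies (Abcc1, Abcc4, Abcc5, Abcc10, Abcb1a, Abcb1b, Abcb4 and Abcd3) were followed on 2 mouse arrays, 9 of the 18193 genes that could be named. Abcc3 was chosen for its high ratio between these same arrays and the others because they belong to its family, so every value below describes the arrays and none was tested. The cells were RAW264.7, a mouse macrophage-like line, stably expressing murine LXRα after chemical transfection. On 1 array the cells had received the solvent DMSO for 24 h, and on the other the LXR agonist GW3965 (1 µM) together with the RXR agonist LG268 (100 nM) for 24 h. Both groups therefore carried the introduced receptor, neither ligand was measured alone, and the sources used here do not say whether the line was a single clone. There was 1 array per group, so no p-value or replicate error could be given.

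ATP-binding cassette (ABC) proteins use ATP to move substrates across membranes. The ABCC subfamily, also called multidrug resistance-associated proteins, exports organic anions such as glutathione and glucuronide conjugates, bile salts, leukotrienes and cyclic nucleotides. ABCB proteins include the drug exporter P-glycoprotein, which rodents make from both Abcb1a and Abcb1b, and the phosphatidylcholine transporter encoded by Abcb4. ABCD proteins carry acyl-CoA into peroxisomes. LXR and RXR bind DNA as a pair, classically at a direct repeat of the hexamer AGGTCA spaced by 4 bases, and Abca1 and Abcg1, from other ABC subfamilies, are their best known transporter targets in macrophages.

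The values are MAS5 signals, 1 per probe set, on a linear scale with arbitrary units. A floor of 276.4, the median of all probe sets other than controls over both arrays, was taken as the lower limit of a usable signal. Where the signal of 1 array was at or below it, the fold was computed against the floor and is a minimum, introduced by "at least". Signals can be compared between the arrays for a probe set, but not between probe sets. Each array had a trimmed mean of 2500, and 50.3% (DMSO) and 49.7% (ligands) of probe sets lay above the floor. Macrophage markers were above the floor on both arrays for 9 of 10 genes, with summed signals of 531581 and 592156, and 1 of the 9 was at least 2-fold apart between the arrays. Hepatocyte markers numbered 0 of 6 above the floor with DMSO and 1 with the ligands, Apoa1. Of the 7 intestinal epithelial and 5 lymphoid markers on the array none exceeded the floor on either array. Pdgfrb was the only one of 7 fibroblast markers above the floor, and of 7 granulocyte and mast cell markers 0 exceeded it with DMSO and 2 with the ligands. The only error available within the arrays was the disagreement between probe sets of a gene, a standard deviation of 0.28 for a log2 ratio over 4866 genes. It was taken from the 2 brightest probe sets of each gene above the floor on both arrays, so it may be too small for weak probe sets. It does not include variation between cultures.

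Promoter sequence from RefSeq (GRCm38.p6) was at hand for 7 of the 9 genes, in 10 windows, and not for Abcc1 or Abcc3. The stretch before the start site of Abcc5 is shown because Abcc5 was the other member past 2-fold, and 1 of the windows of Abcc4 because this close relative had nearly the same signal on both arrays. Each stretch covers the 250 bases before an annotated start, 5′ to 3′ on the strand of the gene, at chr16:20426395-20426644 for Abcc5 and chr14:118706220-118706469 for Abcc4, both on the minus strand. Capitals mark TGACNNNGC on either strand, the core of the antioxidant response element bound by NRF2.
Abcc5: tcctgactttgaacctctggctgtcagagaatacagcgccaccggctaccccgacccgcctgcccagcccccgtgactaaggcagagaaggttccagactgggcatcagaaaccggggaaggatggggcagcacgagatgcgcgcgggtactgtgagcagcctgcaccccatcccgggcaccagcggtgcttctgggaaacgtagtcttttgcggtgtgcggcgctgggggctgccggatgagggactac
Abcc4: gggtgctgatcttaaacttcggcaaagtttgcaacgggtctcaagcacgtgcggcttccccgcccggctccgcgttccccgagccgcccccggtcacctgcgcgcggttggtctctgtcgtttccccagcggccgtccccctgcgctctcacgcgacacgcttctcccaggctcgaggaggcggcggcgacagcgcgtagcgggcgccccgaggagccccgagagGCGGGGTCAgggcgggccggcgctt
The Abcc5 stretch had a GC content of 64.0%, against a median of 52.4% over all promoter windows, and held neither this core, nor AGGTCA on either strand, nor the direct repeat of that hexamer with 4 bases between. Among all 32851 windows of this length, AGGTCA or its reverse complement was present in 14.0%, TGACNNNGC in 10.2%, and the exact direct repeat in 5 windows. In the members, AGGTCA was found in both windows of Abcc10 and in no window of the other 6 genes. TGACNNNGC was found in both windows of Abcc4 and in 1 of Abcc10, where it overlapped the AGGTCA match. These matches are letters in a window and not measured binding.

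With the ligands, 2 of the 9 transporters had higher signals by 2-fold or more, Abcc3 and Abcc5, both exporters of organic anions of the ABCC subfamily. Of the rest, 5 had log2 ratios between -0.16 and 0.19, Abcb1a could be given only as at least 1.37-fold lower, and Abcc10 did not reach the floor on either array. By the brightest probe set of each gene, the ligand signal was 2-fold or more above DMSO for 2 of 8 measured members and 2-fold or more below it for 0 of 8. Over all 11077 measured genes these shares were 1.67% and 0.776%. Because Abcc3 was selected by this contrast, nothing was read from these shares. The median log2 ratio of the 8 genes was -0.06, close to the -0.03 of all measured genes. The 9 genes had 23 probe sets, of which 17 were above the floor on at least 1 array and 14 on both. Of the 17 probe sets, 7 lay 2-fold or more above and 1 lay 2-fold or more below, against 1.8% and 1.07% of all 20731 measured gene probe sets. Most of the 7 belonged to Abcc5, which has 10 probe sets.

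**Figure D1:**
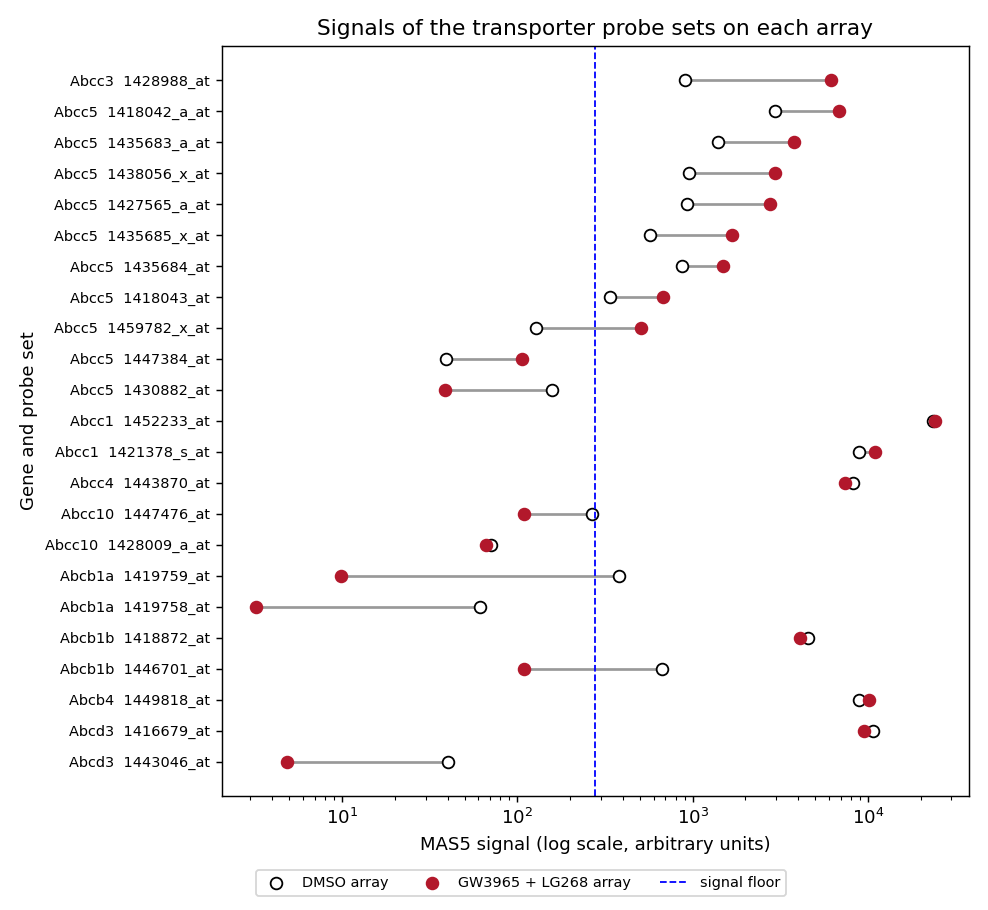
MAS5 signal (log scale, arbitrary units) of each of the 23 probe sets of the 9 transporter genes on the DMSO array (open) and the ligand array (filled), joined by a line, with the floor of 276.4 dashed. The line is long above the floor for Abcc3 and Abcc5, short for the brighter probe sets of the other genes, and long again only where the ligand signal lies below the floor.

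Abcc3 encodes MRP3, which exports glucuronide conjugates and bile salts and is best known from the basolateral membrane of hepatocytes and enterocytes. Its single probe set read 901 with DMSO and 6194 with the ligands. The ligand value was 6.88-fold higher, a log2 ratio of 2.78. This ratio ranked 12th of the 11077 measured genes and 9th of the 9769 genes above the floor on both arrays. No second probe set was present to set beside it. With the floor at the 75th percentile, its log2 ratio became a lower bound of 1.5.

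By the likeness of the log2 ratio over the 2 arrays, the genes nearest to Abcc3 were Tgm2, Tmem86a, Tifab, AB124611 and Sdc3. Tgm2, a transglutaminase, had signals of 558 and 3897, with DMSO and with the ligands. Tmem86a, a lysoplasmalogenase, had 893 and 5963, and Tifab had 1144 and 7545. AB124611 had 6132 and 38686, and Sdc3, the proteoglycan syndecan-3, had 3577 and 21047. Their log2 ratios ran from 2.56 for Sdc3 to 2.81 for Tgm2, on either side of the 2.78 of Abcc3. The likeness covers these 2 arrays and no other condition.

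**Figure D2:**
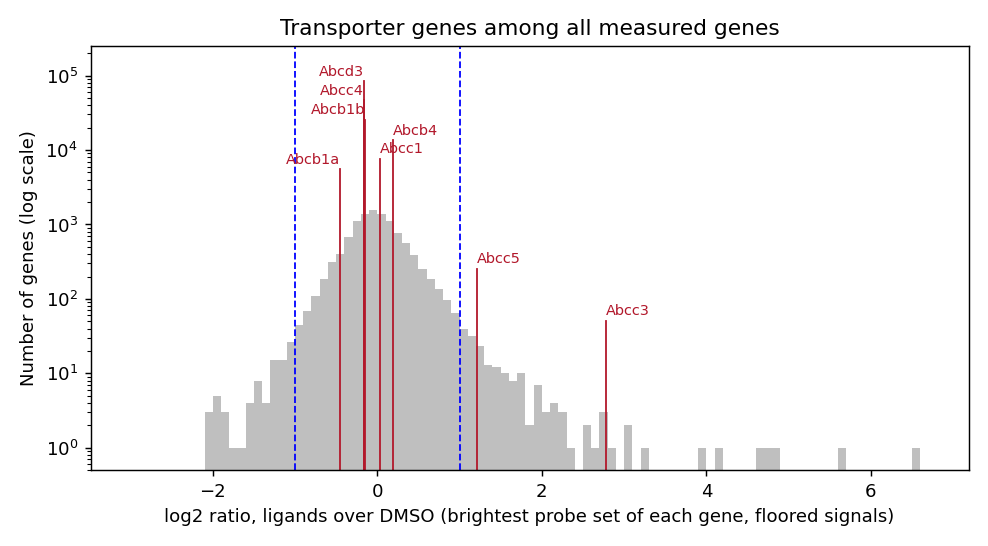
Number of genes (log scale) by log2 ratio of the ligand over the DMSO array, brightest probe set of each of 11077 measured genes, with the 8 measured transporters marked by red lines whose height has no meaning and 2-fold dashed. Abcc3 at 2.78 and Abcc5 at 1.21 lie right of the bulk, and the other 6 lie between -0.45 (Abcb1a, a bound) and 0.19 (Abcb4).

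Abcc5 encodes MRP5, an exporter of cyclic nucleotides and nucleotide analogues. Its brightest probe set, 1418042_a_at, read 2947 with DMSO and 6806 with the ligands. This was 2.31-fold higher, a log2 ratio of 1.21 that ranked 112th of the 11077 measured genes. All 8 of its measured probe sets were higher on the ligand array, 6 of them at least 2-fold. Probe set 1435683_a_at read 1400 and 3777 (2.70-fold), and 1438056_x_at read 952 and 2957 (3.11-fold). Probe set 1427565_a_at read 929 and 2777 (2.99-fold), and 1435685_x_at read 574 and 1682 (2.93-fold). The gene's measured probe sets thus agreed in direction, although not in size. The smallest ratios were 872 and 1501 for 1435684_at (1.72-fold) and 336 and 677 for 1418043_at (2.01-fold). For 1459782_x_at the DMSO signal of 127 was below the floor and the ligand signal of 508 at least 1.84-fold higher. The remaining probe sets, 1430882_at (158 and 38.5) and 1447384_at (39.0 and 106), were below the floor on both arrays and give no fold.

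Over the 8 measured probe sets of Abcc5, the median log2 ratio was 1.32 and the range 0.78 to 1.63. The probe sets are not independent measurements: 1435683_a_at, 1435684_at and 1435685_x_at were designed from the same sequence accession, and probe sets ending in _x_at can bind other transcripts. Of the 36 genes with 7 or more probe sets past the floor on each array, Abcc5 had the highest median, 1.43. It was also the only 1 of the 36 in which each such probe set was at least 1.5-fold higher. This comparison was chosen after the values of Abcc5 had been seen. The next highest median of the 36 was 0.53, for Ywhaz, whose probe sets ranged from -1.14 to 0.80.

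**Figure D3:**
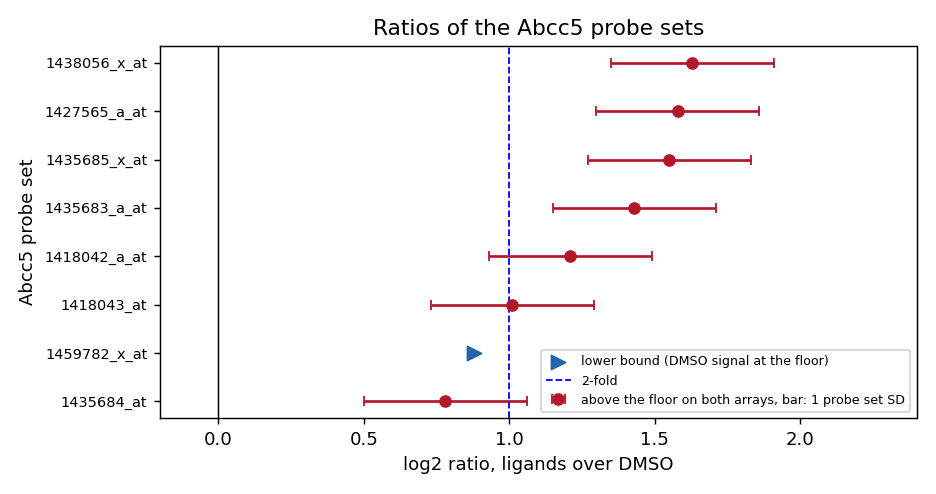
Log2 ratio of the ligand over the DMSO array for the 8 measured probe sets of Abcc5, with bars of 0.28, the probe set standard deviation, which covers disagreement within the arrays and not variation between cultures. That deviation came from the brightest probe sets of each gene and may be too small for the weaker ones shown. All points lie right of 0, from 0.78 to 1.63, and the triangle is a lower bound.

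Abcc1 encodes MRP1, which exports leukotriene C4 and glutathione conjugates. Its 1452233_at probe set read 23540 with DMSO and 24056 under the ligands, a log2 ratio of 0.03. Its second probe set, 1421378_s_at, had 8946 and 11042, a ratio of 0.30. These ratios are about as large as the probe set standard deviation of 0.28 or smaller. Abcc4 encodes MRP4, an exporter of cyclic AMP and prostaglandins. It had 1 probe set, with signals of 8235 and 7368, 1.12-fold lower. Abcc10, encoding MRP7, had signals of 265.5 and 109.6 for 1447476_at and of 70.5 and 66.6 for 1428009_a_at. All were below the floor, so no fold was given; with the floor at the 25th percentile, the first was 2.42-fold lower.

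The 3 ABCB members lie next to each other in the genome, and their ratios differed in sign. The log2 ratios of Abcb4 (0.19) and of the brightest Abcb1b probe set (-0.15) were both smaller than the probe set standard deviation of 0.28, so opposite directions were not shown. Abcb4, whose product moves phosphatidylcholine into bile, had signals of 8935 with DMSO and 10221 with the ligands, 1.14-fold higher. Abcb1b, of the P-glycoprotein pair, had 4575 and 4125 in its brightest probe set, 1418872_at, which was 1.11-fold lower. Its weaker probe set 1446701_at read 669 and 109, at least 2.42-fold lower, so the probe sets of this gene disagreed in size. Abcb1a, the other P-glycoprotein gene, was above the floor only with DMSO (379 against 9.84 with the ligands, 1419759_at) and at least 1.37-fold lower. With the floor at the 25th percentile the Abcb1a value was at least 5.39-fold lower. Its other probe set, 1419758_at, was below the floor on both arrays (60.9 and 3.24). In all 3 of these weak Abcb1a and Abcb1b probe sets the signal was lower with the ligands and lay under the floor there.

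Abcd3 encodes PMP70, which brings branched-chain and bile acid precursors into peroxisomes. Its bright probe set, 1416679_at, had signals of 10646 with DMSO and 9505 with the ligands, 1.12-fold lower. The weak probe set 1443046_at (40.1 and 4.83) was below the floor on both arrays. When all probe sets of a gene were averaged on the log2 scale, these weak probe sets brought Abcb1b to 2.61-fold lower and Abcd3, whose averaged ligand signal was under the floor, to at least 2.36-fold lower. The ratios of Abcc4, Abcd3 and the brightest probe set of Abcb1b, -0.16, -0.16 and -0.15, were smaller than the probe set standard deviation.

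Genes beside the members in the RefSeq order were examined after the ratios had been seen. For 3 named genes on each side of Abcc3, Ankrd40 (6384 and 5762) and Luc7l3 (21848 and 21280) had log2 ratios of -0.15 and -0.04, and Wfikkn2, Cacna1g, Epn3 and Mycbpap were below the floor on both arrays. Beside Abcc5, Eif2b5, a translation factor subunit, had a log2 ratio of 0.37 (8111 and 10514) and Ap2m1, a clathrin adaptor subunit, 0.32 (20317 and 25349). On its other side Parl, a mitochondrial protease, had -0.07 and Yeats2 -0.36, while Map6d1 was below the floor. Dvl3, between Eif2b5 and Ap2m1, was also below the floor. No measured neighbour of Abcc3 or Abcc5 was 1.5-fold apart. Next to the Abcb cluster, Crot, which transfers acyl groups to carnitine in peroxisomes, had -0.14, Slc25a40 -0.31, Dbf4 -0.01 and Dmtf1 0.02. Tmem243 was 1.52-fold higher (2230 and 3400), and Rundc3b was below the floor.

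Of 15 further ABCB, ABCC and ABCD genes on the array, 8 were above the floor and 0 reached a 2-fold difference either way. Their median log2 ratio was 0.04, or 0.35 with the mean over probe sets of each gene. Of all measured genes, 1.67% were at least 2-fold higher and 0.776% lower, so 0 of 8 says little about these relatives. With the floor at the 25th percentile, and also with no floor, 1 gene of this list was at least 2-fold higher and 2 lower. Abcb6, a porphyrin-linked transporter of organelle membranes, was 1.51-fold higher (3977 and 5987). Abcd2, a peroxisomal relative of Abcd3, was under the floor in the DMSO array (234) and at least 1.54-fold higher in the other (424). Tap1 and Tap2, which load peptides for antigen presentation, had ratios of -0.04 and 0.11, and Abcb8, Abcb10 and Abcd4 lay between -0.08 and 0.12. Abcc8 was under the floor on the ligand array (302 and 256), with a log2 ratio of -0.13 or lower. Abcc2, the canalicular relative of Abcc3, was below the floor on both arrays. Of the ABCE and ABCF genes, soluble proteins of translation, all 4 were measured, with ratios from -0.07 to 0.11 and a median of 0.03.

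Among the ABCA and ABCG genes, 7 of 20 on the array were measured and 2 were at least 2-fold higher. They were the cholesterol exporters Abca1 (2989 and 81159, 27.2-fold) and Abcg1 (5844 and 21913, 3.75-fold), and 0 were 2-fold or more below DMSO. Of all measured genes, 1.67% were at least 2-fold higher and 0.776% lower. The counts for the ABCA and ABCG genes depended on the floor. They were 4 higher and 2 lower with the floor at the 25th percentile, and 4 and 3 with no floor. The median log2 ratio was 0.34, but -0.24 with the floor at the 25th percentile, -0.06 with no floor and 1.13 with the floor at the 75th percentile. Abcc3 and Abcc5 thus had ratios below that of Abca1, and the ratio of Abcc3 was above that of the brightest Abcg1 probe set (1.91) and below that of its other one (2.97).

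**Figure D4:**
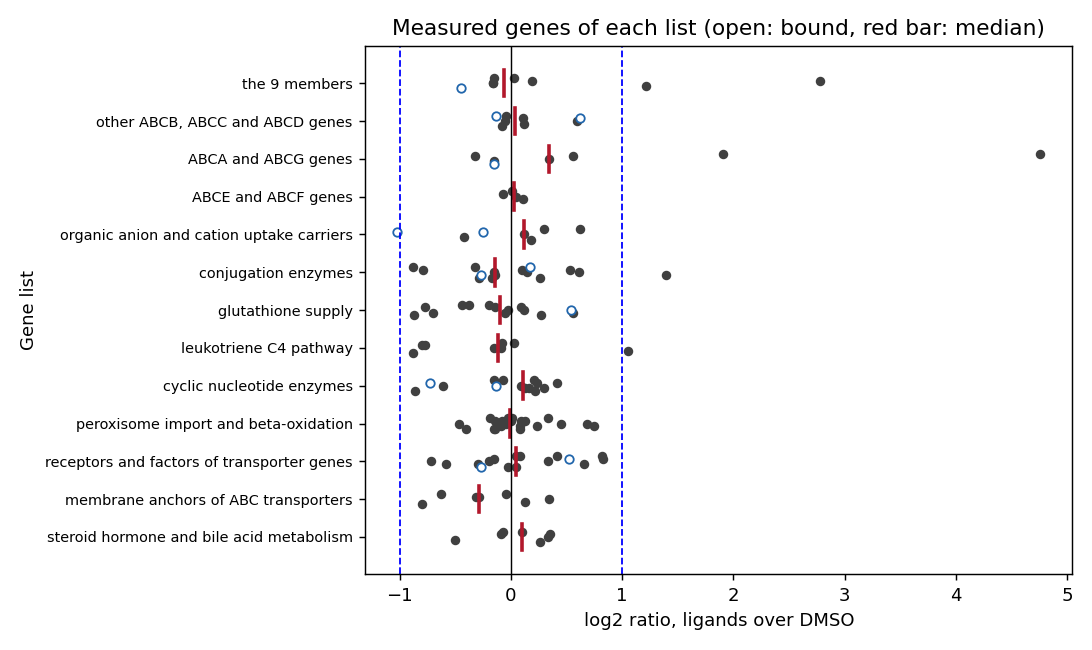
Log2 ratio of the ligand over the DMSO array for the measured genes of each list, brightest probe set of each; open circles are bounds, red bars are medians and dashed lines mark 2-fold. Right of the 2-fold line lie Abca1, Abcc3, Abcg1, Sult5a1 (1.39), Abcc5 and Ltc4s (1.05), while the medians of the lists lie between -0.29 and 0.34.

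Of the receptors and factors known to act on transporter genes, 16 of 24 on the array were measured, with a median log2 ratio of 0.05. By the floored ratios, some of them bounds, 0 were 2-fold apart. Over all measured genes the shares were 1.67% higher and 0.776% lower. With the floor at the 25th percentile, and also with no floor, 4 genes of this list were at least 2-fold higher and 0 lower. Nr1h3, the gene of the introduced receptor, (3150 and 5577) was 1.77-fold higher, and Rxrb (10594 and 11169) and Rxra (430 and 421) had ratios of 0.08 and -0.03, with other probe sets of Rxra at 0.33 and, as a bound, at -0.38 or lower. The retinoic acid receptors Rara (1693 and 3002) and Rarg (1777 and 2799) were 1.77-fold and 1.58-fold higher and Rarb (1243 and 755) 1.65-fold lower. Nfe2l2, which encodes NRF2, had probe sets at -0.15 and 0.39, and Nr1h4, the bile acid receptor, was under the floor on the DMSO array, with a log2 ratio of at least 0.52 (61.3 and 396).

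Genes that make or handle substrates of the members were compared next. For the leukotriene C4 pathway, whose product Abcc1 exports, 8 of 12 genes on the array were measured, with a median log2 ratio of -0.12. Ltc4s, the leukotriene C4 synthase, was 2.07-fold higher (1603 and 3318). Alox5, which starts leukotriene synthesis, was 1.74-fold lower (9672 and 5554), and Mgst2, a glutathione transferase that can also make leukotriene C4, was 1.84-fold lower (7198 and 3913). Ggt5, which trims the glutathione part of leukotriene C4, was 1.71-fold lower (890 and 522). The enzymes of this pathway therefore pointed in both directions while Abcc1 itself had ratios of 0.03 and 0.30. With the floor at the 75th percentile, Ltc4s was no longer at least 2-fold higher.

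For the synthesis and breakdown of cyclic nucleotides, exported by the products of Abcc4 and Abcc5, 14 of 31 genes present were measured and 0 were 2-fold apart. The median log2 ratio was 0.11. The phosphodiesterases Pde4b (1067 and 586) and Pde2a (35143 and 23093) were 1.82-fold and 1.52-fold lower by their brightest probe sets, but other probe sets of these genes reached -0.03 and 0.12. Adcy3, an adenylate cyclase, was under the floor on the ligand array and at least 1.66-fold lower (459 and 231), with another probe set at -0.18 or lower, also a bound. Adcy7, a cyclase of immune cells, had 25204 and 29266, a ratio of 0.22.

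Glutathione supply, which feeds conjugate export, had 14 of 15 genes measured, with none 2-fold apart and a median log2 ratio of -0.10. Over all measured genes 1.67% were 2-fold higher and 0.776% lower. With the floor at the 25th percentile, and also with no floor, 1 gene of this list was at least 2-fold higher and 0 lower. The cystine carrier Slc7a11 (1475 and 808) was 1.83-fold lower by its brightest probe set, with the other at -0.09 or lower, a bound, and Chac1 (13230 and 8171), which degrades glutathione, was 1.62-fold lower. The glutathione reductase Gsr had a ratio of 0.56 (11274 and 16604) and another probe set at 0.02. Of the subunits of the rate-limiting ligase, Gclc had -0.20, and the probe sets of Gclm disagreed in direction, at 0.09 and -0.92. In the list of peroxisome import and beta-oxidation, in which Abcd3 acts, 22 of 27 genes were measured, 11 with positive and 11 with negative ratios, and the median was -0.01. Acox3 (1085 and 1822) and Amacr (1475 and 2364), which handle branched-chain substrates of the Abcd3 route, were 1.68-fold and 1.60-fold higher, and Pex19, which delivers Abcd3 to the membrane, had 0.09.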

How the data were processed

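RNA of the LXRα-expressing RAW264.7 line was measured on 2 Affymetrix mouse arrays, 1 with DMSO and 1 with GW3965 and LG268. The deposited values are intensities on a linear scale, 1 per probe set, made by the authors with MAS5 per the submitters' processing notes, which name no version. MAS5 scales each array to a trimmed mean, so ratios are relative to the bulk of the array. Detection calls were not used here, and the number of arrays limits the precision.

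Probe sets with 1 platform symbol (34945 of 45101) were named, 34741 of them through their gene identifier in RefSeq; 932 had several symbols and were left out. Signals were floored at the 50th percentile of probe sets other than controls, and log2 ratios taken. A gene was represented by its brightest probe set and counted as measured if above the floor on at least 1 array. With 1 array per group no test was made. The ratio calculation was tested on simulated data.

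All probe sets of the 9 members were named. Of each of 12 other lists, up to 4 measured genes at least 1.5-fold apart with the largest ratios were named, and the 5 genes nearest to Abcc3 in ratio. Other genes quoted were chosen after their values were seen. The members and lists were chosen with earlier results of these data known. Alternatives were other floors, log2(signal + 32), quantile normalization, centring, rescaling to a 2% trimmed mean, averaging or leaving out probe sets, and other thresholds. Python 3.11.15, numpy 2.4.6 and pandas 2.3.3 were used.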

Additional observations from a re-analysis of the deposited data

How the results depend on the processing

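Abcc3 and Abcc5 were the members at least 2-fold higher under each floor, each normalization and each choice of probe set. Rescaling could not change this, because each array already had a trimmed mean of 2500, and its repeated values are among those counted below. Centring could change little, moving Abcc3 from 2.78 to 2.80 and Abcc5 from 1.21 to 1.23. With the floor at the 75th percentile, however, Abcc5 passed 2-fold only by its brightest probe set (1.21). Its probe sets 1427565_a_at, 1438056_x_at and 1435683_a_at were then lower bounds of 0.35, 0.44 and 0.79. The other Abcc5 probe sets were below that floor on both arrays. At a threshold of 3-fold the count was 1, Abcc3. The log2 ratio of Abcc3 was 2.74 to 2.80 under the other settings and a lower bound of 1.5 with the floor at the 75th percentile. The count of members at least 2-fold lower was 0 in the main setting, but 2 with the floor at the 25th percentile (Abcb1a and Abcc10), 2 with no floor (the same genes), and 2 with the mean over probe sets (Abcb1b and Abcd3), all through weak probe sets. Of 96 recomputed ratios of member probe sets, 10 moved by at least the probe set standard deviation and none of those at least 2-fold apart changed sign. Probe sets of Abcc5, Abcb1a and Abcb1b that fell below the 75th percentile floor on both arrays had no ratio there. Those lost ratios are not among the 96. Of 108 recomputed medians of the other lists, 7 moved by as much. Of 192 recomputed counts, 39 moved by over 1.5 times, away from 0 or down to 0, most with a lower floor or none. The cause was not tested. No paired analysis was possible because each group had 1 array. Precision is limited by signal over background, so weak probe sets give only bounds.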

Other observations

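Uptake carriers that supply organic anions and cations had 7 of 23 genes on the array above the floor, with a median log2 ratio of 0.12. With the floor at the 25th percentile the median was -0.19. The count at least 2-fold lower then went from 1 to 5, and the count at least 2-fold higher from 0 to 2. With no floor 6 were lower and 5 higher, and with the floor at the 75th percentile both counts were 0. Over all measured genes the shares in the main setting were 1.67% higher and 0.776% lower. Slco2b1, an organic anion carrier, was above the floor only with DMSO and at least 2.03-fold lower (562 and 220), and the lysosomal nucleoside carrier Slc29a3 was 1.54-fold higher (1187 and 1823). Slc22a5, the carnitine carrier, had a probe set at -0.42 and another, under the floor with DMSO, at 1.08 or higher, which disagreed in direction. Slc51a, which exports bile acids from enterocytes, was above the floor only with DMSO (328 and 138).

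Conjugation enzymes, which make the anions that ABCC proteins export, had 15 of 36 genes measured and a median log2 ratio of -0.14. Sult5a1, a sulfotransferase by name, was 2.62-fold higher at weak signals (349 and 915). With the floor at the 75th percentile, 0 genes of this list were at least 2-fold higher. With the floor at the 25th percentile 4 were higher and 2 lower by that much, and with no floor 5 and 2. The glutathione transferase genes Gstm3 (523 and 304) and Gstm4 (359 and 546) were 1.72-fold lower and 1.52-fold higher, also at weak signals. Glutathione transferases of this family are similar in sequence and may share signal. Membrane anchors of ABC transporters had 7 of 10 genes measured, 2 with positive and 5 with negative ratios, and a median of -0.29, or 0.03 with the floor at the 25th percentile and 0.05 with no floor. Cav2, a caveolin, was 1.74-fold lower (1103 and 633) and Ezr, which ties membrane proteins to actin, 1.55-fold lower (5862 and 3780). Steroid and bile acid metabolism had 7 of 16 genes measured, none 1.5-fold apart, and a median of 0.10, with Cyp27a1, the sterol 27-hydroxylase, at -0.07 (6795 and 6484). With the floor at the 25th percentile 1 gene of this last list was at least 2-fold higher and 1 lower, and with no floor 3 and 1.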
